A study of Homo sapiens with 18 samples.

Results

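The 8 genes described here encode secreted signalling proteins that belong to the secretome of senescent cells: the interleukins IL1A, IL1B, IL6 and IL7, the CXC chemokines CXCL1, CXCL3 and CXCL8, and the growth factor CSF1. They were chosen by name as 8 of the 3074 genes in a table of poly(A) RNA from SJSA-1 cells, a human osteosarcoma line known for amplified MDM2 and wild-type p53. Cells received DMSO or the DNA-breaking drug neocarzinostatin (NCS, 1 µg/mL) for 72 h. At 48 h the NCS or DMSO was refreshed, and DMSO, MI-1061 or MD-224 (each compound at 1 µM) was given for the last 24 h. The 6 groups of 3 libraries are named DMSO, MI-1061, MD-224, NCS, NCS+MI-1061 and NCS+MD-224, and DMSO was the vehicle in the DMSO and NCS groups. The labels do not say whether the replicates came from separate cultures, so p-values measure the spread between these libraries, which may be technical. All 18 libraries came from 1 cell line.

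MI-1061 is an inhibitor that occupies the p53 pocket of MDM2, and MD-224 is a degrader in which an inhibitor of this kind is joined to a ligand of the cereblon ubiquitin ligase. Cells with lasting DNA damage can stop dividing for good and secrete cytokines, chemokines, proteases and growth factors. In that secretome IL1A, which can stay bound to the cell surface, signals through the IL-1 receptor to NF-kB, and NF-kB with C/EBPβ and AP-1 factors drives genes such as IL6 and CXCL8. CXCL1, CXCL3 and CXCL8 attract neutrophils through the receptor CXCR2. IL7 supports lymphocyte survival, and CSF1 sustains monocytes and macrophages through CSF1R. The values here are RNA levels, and neither senescence nor secretion was assessed.

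The promoter sequences are shown because 3 of the chemokine genes sit in a cluster and a pair of them is nearly the same in sequence just before the start. RefSeq promoters (GRCh38.p14) were matched by symbol for 6 of the 8 genes. The last 120 bases before the start are given on the gene's strand, 5′ to 3′, with capitals for matches to the NF-kB patterns GGGNNNNNCC and GGNNTTTCC and the AP-1 pattern TGANTCA, each searched on both strands.
IL1A (chr2:112784494-112784613, minus strand): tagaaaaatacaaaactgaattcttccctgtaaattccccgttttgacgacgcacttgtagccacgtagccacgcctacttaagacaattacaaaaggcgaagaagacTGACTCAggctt
IL1B (chr2:112836780-112836899, minus strand): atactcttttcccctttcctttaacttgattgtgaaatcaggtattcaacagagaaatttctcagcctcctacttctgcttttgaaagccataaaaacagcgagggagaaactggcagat
IL6 (chr7:22727080-22727199, plus strand): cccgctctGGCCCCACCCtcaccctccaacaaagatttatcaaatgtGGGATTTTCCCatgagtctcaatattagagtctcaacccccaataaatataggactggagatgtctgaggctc
CXCL1 (chr4:73869273-73869392, plus strand): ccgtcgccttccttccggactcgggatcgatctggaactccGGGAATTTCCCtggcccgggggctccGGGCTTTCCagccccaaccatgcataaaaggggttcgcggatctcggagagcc
CXCL3 (chr4:74038690-74038809, minus strand): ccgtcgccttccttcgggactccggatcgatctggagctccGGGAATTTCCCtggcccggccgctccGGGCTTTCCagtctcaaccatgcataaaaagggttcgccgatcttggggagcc
CXCL8 (chr4:73740449-73740568, plus strand): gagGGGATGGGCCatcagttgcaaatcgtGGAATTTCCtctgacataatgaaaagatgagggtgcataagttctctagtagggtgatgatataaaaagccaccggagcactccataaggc

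CXCL1 and CXCL3 were identical at 109 of the 120 positions (90.8%, compared without gaps), and both held a 10-letter match from -79 to -70 and a 9-letter match from -53 to -45, counted from the start. IL6 had its overlapping matches from -73 to -63, and CXCL8 a 9-letter match from -91 to -83. IL1A had an AP-1 match from -12 to -6, a second one after the start and no NF-kB match, and IL1B had none of the 3 patterns within 250 bases before to 50 after the start. In that 300-base window the 9-letter pattern occurred in 4 of these 6 promoters and in 6.26% of 35116 RefSeq promoters. The 10-letter pattern overlaps the 9-letter one in IL6 and near -79 in CXCL1 and CXCL3. It occurred in 4 of 6 and in 58.7%, and the AP-1 pattern in 2 of 6 (IL1A and CXCL8) and in 7.71%. Among 3143 promoters of listed genes the shares were 6.81% (9 letters), 69.7% (10 letters) and 7.60% (AP-1). The nearly identical CXCL1 and CXCL3 promoters were counted separately. A match describes letters, not a bound site.

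By RefSeq positions, IL1A (chr2:112773925-112784493) and IL1B (chr2:112829751-112836779) lie 45.257 kb apart. CXCL8 (chr4:73740569-73743716), CXCL1 (chr4:73869393-73871308) and CXCL3 (chr4:74036589-74038689) follow each other on chromosome 4 with 125.676 kb and then 165.28 kb between them. IL6 is at chr7:22727200-22731998, CSF1 at chr1:109910506-109930992 and IL7 on chromosome 8. In GENCODE release 29 transcripts, 4.81% of the 50-base stretches of CXCL1 and 6.01% of those of CXCL3 also occurred in CXCL2, so reads from that paralog could be split with them. The other 6 genes shared no 50-base stretch with another gene.

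Every gene in the table had a mean at least 1.75-fold higher in NCS+MI-1061 than in DMSO, with a median ratio of 2.997 over all of them. The contrast of those groups is therefore no test, and every other comparison holds for genes that passed this listing. Comparisons and interactions that use the NCS+MI-1061 or DMSO libraries reuse values the listing selected on, so their p-values and shares carry that selection. The 8 genes were listed with ratios from 1.87 for IL7, near the lower limit, to 130 (129.9) for IL1B. All 8 passed the filter on low values, as did 3073 of the 3074 genes. Replicates of a group correlated at 0.964 to 0.992 (Pearson, log2, across genes), and none differed by as little as counting noise. MDM2 and CDKN1A, targets of p53 used to check the labels, were higher in every library with a compound than in every library without one under the same NCS condition. Of 10 bone markers 3 were listed (COL1A2, SPARC and SPP1), with summed levels of 70302 to 196765 normalized counts per library. The table is a selection, so the other 7 were not analysed here.

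Levels differed widely between the genes. Per kb of merged exons, CSF1 had the highest level in 5 of the 6 groups, from 1519 normalized counts per kb with DMSO to 7072 with MI-1061. The exception was NCS+MI-1061, where IL1B was at 3237 and CSF1 at 3181 per kb. CXCL3 had the lowest level per kb in all 6 groups, from 6.35 with MD-224 to 61.9 with NCS+MD-224. Its counts in the 9 libraries without NCS rested on 2 to 42 reads.

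**Figure D1:**
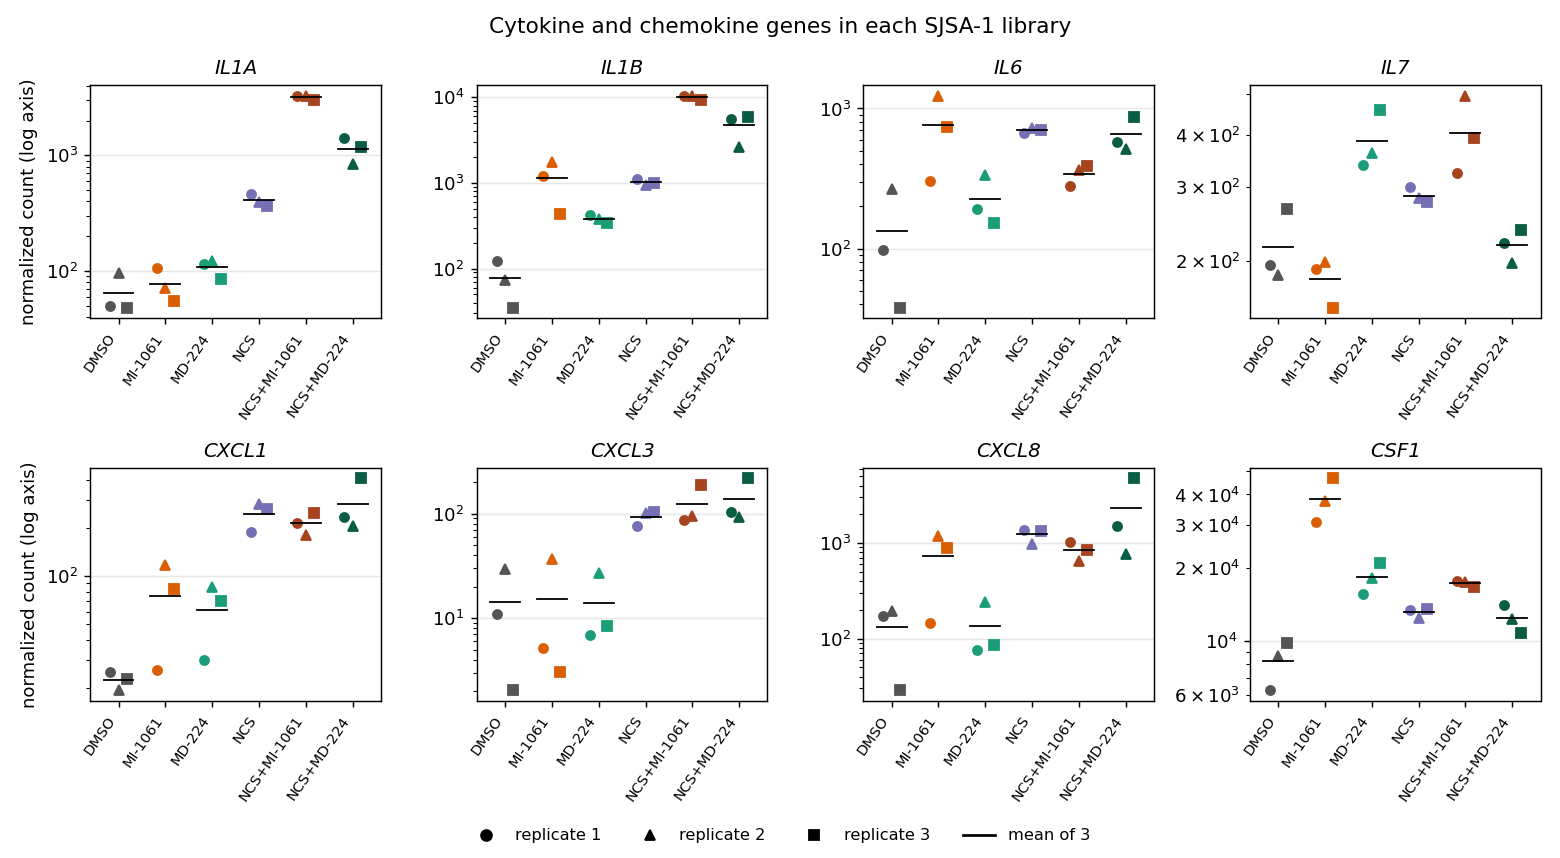
Normalized counts (log axis) of the 8 genes in each of the 18 libraries, by group, with replicates 1, 2 and 3 as circle, triangle and square and the mean as a line. IL1A and IL1B stood highest in NCS+MI-1061 (means of 3178 and 10021), and CSF1 was highest in MI-1061 alone (mean 38316). The listing of genes selected on high values in NCS+MI-1061. IL6 and CXCL8 were spread widely in DMSO and in MI-1061, and CXCL8 also in NCS+MD-224.

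NCS alone went with higher RNA for 7 of the 8 genes: IL1A, IL1B, IL6, CXCL1, CXCL3, CXCL8 and CSF1. Of all tested genes, 54% were called higher and 1.3% lower in this comparison (limma, Benjamini-Hochberg adjusted p under 0.05 over 3073 genes, as for all calls here). All 8 genes had every NCS library above every DMSO library, as did 58.7% of tested genes, while 2.8% had every one below. The median change of the 8 genes was 7.87-fold, against 1.58-fold over all tested genes. Fold changes are 2 to the power of differences on the log2(value + 1) scale, which understates changes of low genes, and intervals are 95%. In the 9 pairwise comparisons the counts called among the 8 genes were the same at an unadjusted p under 0.05. TMM scaling computed on the listed genes assumes that they do not rise as a whole, although they were listed for being higher with NCS+MI-1061. Its calls, here and below, are therefore relative to the listed genes. Under it the median of all genes moved by -0.60 on the log2 scale. It called 456 genes higher and 467 lower, against 1659 and 40 with the deposited scaling. All 7 genes stayed higher under TMM scaling, but CSF1 lost its call (log2 difference of 0.08, adjusted p = 0.739).

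IL1A, which signals through the IL-1 receptor, had 50.3, 97.1 and 48.1 normalized counts with DMSO in replicates 1, 2 and 3. With NCS it had 467, 397 and 367. The groups did not overlap, and IL1A rose 6.53-fold (interval 4.34 to 9.82, adjusted p = 1.24e-06). IL1B, the interleukin that caspase-1 matures, had 124, 73.0 and 34.8 with DMSO and 1108, 948 and 1011 with NCS. It rose 14.8-fold (7.75 to 28.2, adjusted p = 3.69e-06), again with no overlap.

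IL6, a cytokine that signals through gp130 and STAT3, had 98.5, 267 and 37.9 normalized counts with DMSO and 670.2, 731 and 699 with NCS. The DMSO libraries were far apart and those with NCS close together, and IL6 rose 6.92-fold (3.15 to 15.2, adjusted p = 0.000458). CXCL1 had 25.2, 19.2 and 22.5 with DMSO and 188, 283 and 262 with NCS, a 10.4-fold rise (5.30 to 20.5, adjusted p = 2.33e-05). CXCL3 had 10.9, 29.8 and 2.05 with DMSO and 75.6, 100.3 and 102 with NCS, a rise of 8.95-fold (2.77 to 28.9, adjusted p = 0.00367). That call ended without replicate 3 of every group (adjusted p = 0.0721). CXCL8 had 171, 193 and 28.6 with DMSO and 1383, 972 and 1339.8 with NCS, a rise of 12.2-fold (3.88 to 38.5, adjusted p = 0.00115). All 3 chemokines lay above DMSO in every library with NCS, and DMSO replicate 3 was the lowest of its group for CXCL3 and CXCL8.

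IL7 and CSF1 changed least. IL7 had 196, 185 and 267 normalized counts with DMSO and 300.2, 283 and 277 with NCS. The groups did not overlap, but IL7 did not pass the test (1.34-fold, 0.996 to 1.81, adjusted p = 0.0852). Without DMSO replicate 3 it did (log2 difference of 0.59, adjusted p = 0.035), and under TMM scaling its sign turned (-0.19). CSF1 had 6239.7, 8680.1 and 9770.3 with DMSO and 13385, 12447 and 13469.8 with NCS, and rose 1.62-fold (1.27 to 2.06, adjusted p = 0.00238).

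NCS was also compared in cells given a compound, where the background was different. With MI-1061, 5 of the 8 genes were higher with NCS than without (table: 55.9% higher) and CSF1 was lower (table: 10.1% lower). With MD-224, 6 were higher (table: 39%) and IL7 and CSF1 lower (table: 0.586%). IL1A was 41.8-fold higher in NCS+MI-1061 than in MI-1061 (27.8 to 63.0, adjusted p = 2.27e-10) and 10.4-fold higher in NCS+MD-224 than in MD-224 (6.94 to 15.7, adjusted p = 5.92e-07). For IL1B the folds were 10.3 (5.38 to 19.5, adjusted p = 4.07e-06) and 11.6 (6.08 to 22.1, adjusted p = 1.82e-05). These directions held under TMM scaling. The libraries did not overlap for the same 6 genes beside MI-1061 (tested genes: 60.2% higher, 12.9% lower) and for all 8 beside MD-224 (48.5% higher, 1.89% lower). TMM scaling called 930 genes higher and 729 lower beside MI-1061 (1717 and 309 as deposited) and 428 and 223 beside MD-224 (1198 and 18).

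CXCL3, which no compound alone moved past the test, rose 11.9-fold with NCS in the presence of MI-1061 (3.69 to 38.5). In the presence of MD-224 it rose 10.0-fold (3.11 to 32.5), a call that ended without replicate 1 or 3 of every group (adjusted p = 0.064 and 0.0529). CXCL1 rose 3.34-fold (1.69 to 6.56) and 4.73-fold (2.40 to 9.32). Beside MI-1061 that call ended with edgeR and TMM (log2 difference of 0.93 against 1.74, adjusted p = 0.0737), and beside MD-224 with replicate 3 of all groups left out (0.0562). CXCL8 rose 15.0-fold in the presence of MD-224 (4.77 to 47.4, adjusted p = 0.000949). With MI-1061 CXCL8 was 1.54-fold higher (0.489 to 4.86, adjusted p = 0.494), with overlapping groups. IL6 was 0.521-fold in NCS+MI-1061 relative to MI-1061 (0.237 to 1.15, adjusted p = 0.134), and called lower under TMM scaling (0.0214), with edgeR and TMM (0.00998), with DESeq2 (0.0376) and without MI-1061 replicate 1 (log2 difference of -1.49, 0.0258). It was 2.97-fold higher in NCS+MD-224 than in MD-224 (1.35 to 6.54, adjusted p = 0.0285). That last call ended without MD-224 replicate 1 or 3 or without NCS+MD-224 replicate 1 or 3 (adjusted p = 0.0602 to 0.108) and under TMM scaling (0.147).

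CSF1 fell with NCS in the presence of MI-1061, to 0.456-fold (0.358 to 0.581, adjusted p = 1.36e-05). In the presence of MD-224 it fell to 0.678-fold (0.532 to 0.864, adjusted p = 0.0132), a call that ended without MD-224 replicate 3 or NCS+MD-224 replicate 3 (adjusted p = 0.0703 and 0.0592). IL7 rose 2.20-fold with NCS beside MI-1061 (1.63 to 2.96) and fell to 0.572-fold beside MD-224 (0.425 to 0.770). These directions of CSF1 and IL7 held under TMM scaling.

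**Figure D2:**
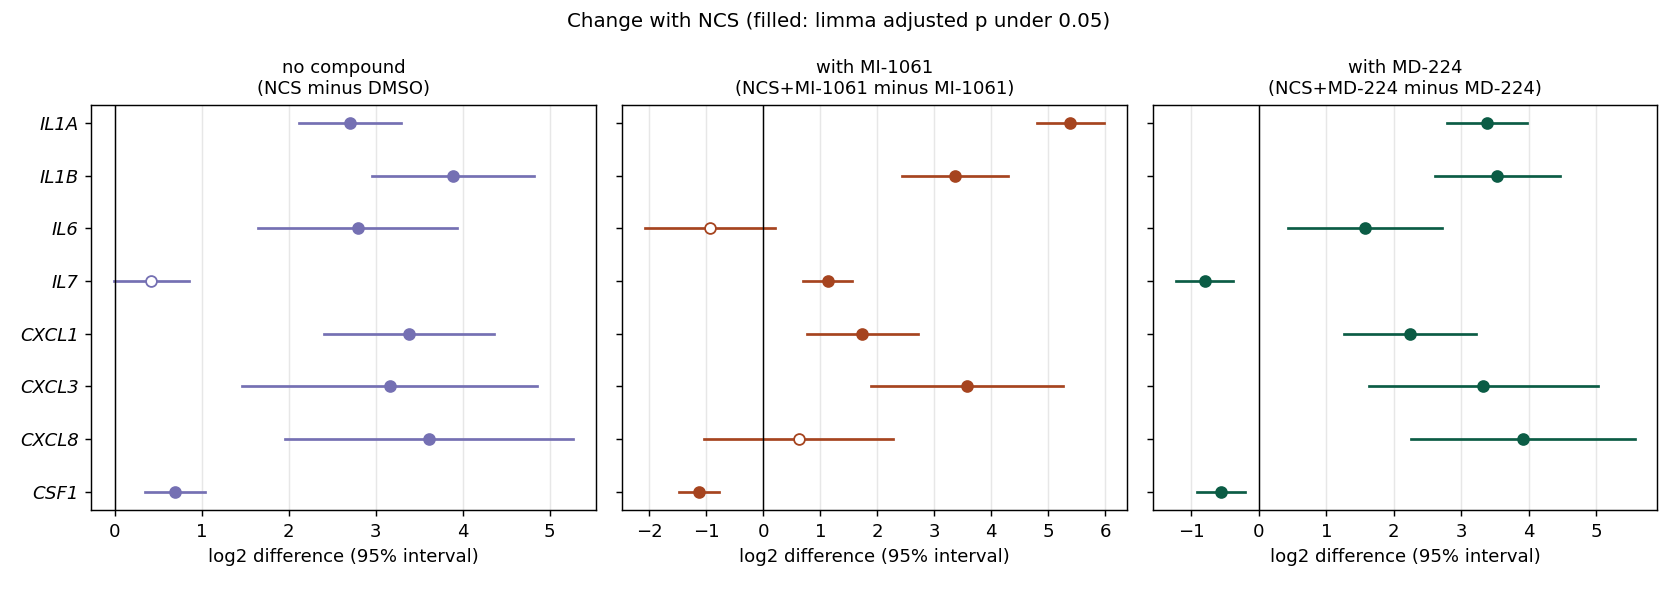
Log2 difference between libraries with and without NCS for each gene, for cells given no compound, MI-1061 or MD-224 (points: limma estimate from 3 against 3 libraries; lines: 95% interval; filled: adjusted p under 0.05). IL1A, IL1B, CXCL1 and CXCL3 lay above 0 in all 3 panels, while CSF1 was above 0 without a compound (0.69) and below 0 with either one (-1.13 and -0.56).

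MI-1061 alone raised 5 of the 8 genes: IL1B, IL6, CXCL1, CXCL8 and CSF1 (table: 67.6% higher, 4.46% lower). The median of the 8 was 3.60-fold and that of all tested genes 1.99-fold. TMM scaling moved the median of all genes by -0.98 in this comparison, with 942 genes called higher and 925 lower (2076 and 137 as deposited). All 5 stayed higher under it, but CXCL1 and CXCL8 lost their calls (adjusted p = 0.343 and 0.118). IL1B, IL6, CXCL1 and CSF1 were above DMSO in every library, as were 65.2% of tested genes, and none of the 8 was below in every library (4.26% of tested genes).

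IL1B had 1219, 1748 and 433 normalized counts with MI-1061, all above the DMSO libraries, and rose 14.1-fold (7.40 to 26.9, adjusted p = 7.36e-07). CSF1 had 30776, 37458 and 46713 and rose 4.67-fold (3.66 to 5.95, adjusted p = 3.83e-09). These 3 libraries were the highest of all 18 for CSF1. IL1A had 105, 72.0 and 55.3, overlapping with DMSO (1.21-fold, 0.804 to 1.82, adjusted p = 0.385). Its sign depended on the scaling, with a call lower under TMM (log2 difference of -0.71, adjusted p = 0.0392).

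IL6 had 305, 1236 and 742 normalized counts with MI-1061 and rose 6.47-fold (2.94 to 14.3, adjusted p = 0.000252). Replicate 1 was the lowest library of this group for IL6, CXCL1 (25.7, 118 and 83.0) and CXCL8 (147, 1182 and 885). CXCL1 rose 2.78-fold (1.41 to 5.46, adjusted p = 0.00883), a call that ended without MI-1061 replicate 2 (0.0635). CXCL8 rose 5.39-fold (1.71 to 17.0, adjusted p = 0.0104), although MI-1061 replicate 1 lay among the DMSO libraries. That call ended without DMSO replicate 3 or without MI-1061 replicate 2 (adjusted p = 0.0819 and 0.0623). CXCL3 had 5.14, 37.2 and 3.07, with no change past the test (0.948-fold, 0.293 to 3.07). IL7 had 192, 199 and 155 (0.849-fold, 0.631 to 1.14, adjusted p = 0.304), and was called lower under TMM scaling (log2 difference of -1.23).

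MD-224 alone raised IL1A, IL1B, IL7, CXCL1 and CSF1, 5 of the 8 (table: 39.9% higher, 2.8% lower). The median of the 8 was 1.95-fold and that of all genes 1.40-fold. Under TMM scaling, which moved the median of all genes by -0.49 and called 327 genes higher and 357 lower (1225 and 86 as deposited), all 5 stayed higher and 2, IL1B and CSF1, kept their calls. With the fit on the DMSO and MD-224 libraries alone, 3 of the 8 were called. IL1B, IL7, CXCL1 and CSF1 were above DMSO in every library, as were 42.3% of tested genes, and none was below in every library (3.38% of tested genes).

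IL1B had 427, 384 and 336 normalized counts with MD-224 and rose 5.52-fold (2.90 to 10.5, adjusted p = 0.000338). CSF1 had 15639, 18165 and 20907 and rose 2.24-fold (1.76 to 2.85, adjusted p = 4.66e-05). IL7 had 339.6, 361 and 456, above every DMSO and every MI-1061 library, and rose 1.79-fold (1.33 to 2.41, adjusted p = 0.00347). That call ended under TMM scaling (0.233).

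IL1A had 115, 122 and 85.9 with MD-224 and rose 1.71-fold (1.14 to 2.57, adjusted p = 0.0345). Its call ended without DMSO replicate 1 or 3 and without MD-224 replicate 1 or 2 (adjusted p = 0.0826 to 0.134). CXCL1 had 29.8, 85.0 and 70.1 and rose 2.48-fold (1.26 to 4.87, adjusted p = 0.0313), a call that ended without DMSO replicate 2 or 3 and without MD-224 replicate 2 or 3 (0.0629 to 0.126). IL6 had 192, 335 and 153, overlapping with DMSO (2.13-fold, 0.966 to 4.68, adjusted p = 0.112), and was called without DMSO replicate 2 (log2 difference of 1.79, adjusted p = 0.00729). CXCL3 had 6.88, 27.0 and 8.38 and CXCL8 75.7, 244 and 85.9, both spread over the range of DMSO. Their folds were 1.23 (0.380 to 3.97) and 1.18 (0.375 to 3.73).

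The degrader and the inhibitor were given at the same dose for the same time, so they were compared directly. Without NCS, MD-224 gave lower IL1B, IL6, CXCL8 and CSF1 and higher IL7 than MI-1061 (table: 49.8% lower, 12.4% higher). The median of the 8 was 0.654-fold, close to that of all tested genes (0.671-fold). The libraries did not overlap for IL1B and CSF1, which were lower (49.2% of tested genes), and for IL7, which was higher (12.2%). IL7 was 2.11-fold higher with MD-224 (1.57 to 2.84, adjusted p = 0.000224). CSF1 was 0.480-fold (0.376 to 0.611, adjusted p = 3.55e-05). Both calls stood in all alternatives tried.

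IL1B was 0.391-fold with MD-224 relative to MI-1061 (0.205 to 0.745, adjusted p = 0.0133), and its call ended without MI-1061 replicate 2 (0.0883). IL6 was 0.328-fold (0.149 to 0.723, adjusted p = 0.0159) and CXCL8 0.219-fold (0.0696 to 0.691, adjusted p = 0.0225), each with overlapping libraries. The IL6 call ended without MI-1061 replicate 2 or MD-224 replicate 3 (0.0955 and 0.0676). The CXCL8 call ended without MI-1061 replicate 2 or 3 or MD-224 replicate 1 or 3 (0.0726 to 0.114). TMM scaling kept the direction of these 3 differences and ended their calls (0.0722 to 0.0976), with 847 genes called higher and 941 lower in all (381 and 1531 as deposited).

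For IL1A, CXCL1 and CXCL3 no difference between the compounds passed the test without NCS, and the intervals were wide. IL1A was 1.41-fold with MD-224 relative to MI-1061 (0.939 to 2.13), and called higher under TMM scaling (adjusted p = 0.00627) or without MI-1061 replicate 1 (0.035). CXCL1 was 0.892-fold (0.453 to 1.76) and CXCL3 1.29-fold (0.401 to 4.18). None of these intervals shows that the compounds act alike.

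After NCS, adding MI-1061 went with higher IL1A and IL1B beyond the NCS level, while no rise of IL6 or the chemokines passed the test. The chemokine intervals were wide and included rises as well as falls. Of the 8 genes, IL1A, IL1B, IL7 and CSF1 were called higher and none lower (table: 70.5% higher, 0.748% lower). The median of the 8 was 1.29-fold, against 1.96-fold for all tested genes. The libraries did not overlap for these 4 (higher in 78.7% of tested genes) and for IL6, which was lower (1.53%). TMM scaling moved the median of all genes by -0.99 here and called 733 genes higher and 593 lower (2168 and 23 as deposited).

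IL1A had 3287, 3268 and 2980.1 normalized counts with NCS+MI-1061 and rose 7.76-fold over NCS (5.15 to 11.7, adjusted p = 6.50e-08). IL1B had 10497, 10339 and 9227 and rose 9.80-fold (5.14 to 18.7, adjusted p = 3.92e-06). These libraries were the highest of all 18 for both genes, and both calls stood in all alternatives tried. The listing selected on high values in this group, and the share of all genes that peaked there was not counted. Of tested genes, 78.7% had every NCS+MI-1061 library above every NCS library, and 60.2% above every MI-1061 library.

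IL7 had 325, 495 and 393 with NCS+MI-1061 and rose 1.39-fold (1.03 to 1.87, adjusted p = 0.0457), but under TMM scaling it was called lower (log2 difference of -0.52). CSF1 had 17644, 17364 and 16690.2 and rose 1.32-fold (1.03 to 1.68, adjusted p = 0.0414), but under TMM scaling it was also called lower (-0.60). Both rises were smaller than that of the median gene of the table, which TMM scaling moved to -0.02 on the log2 scale. The calls lower are relative to that median. The CSF1 call ended on leaving out any 1 of the 6 libraries compared (adjusted p = 0.0643 to 0.106). The IL7 call ended on leaving out any of these except NCS+MI-1061 replicate 1 (0.0686 to 0.21).

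IL6 had 282, 361 and 387 normalized counts with NCS+MI-1061, below all 3 NCS libraries (0.487-fold, 0.221 to 1.07, adjusted p = 0.0941). A fit on these 2 groups of libraries alone, where the spread of IL6 was small, called it lower (adjusted p = 0.000131), as did TMM scaling (0.00544). CXCL1 had 217, 180.3 and 249 (0.887-fold, 0.451 to 1.75) and was called lower under TMM scaling (0.047). CXCL3 had 86.9, 95.7 and 189 (1.26-fold, 0.391 to 4.08), with the sign turned under TMM scaling (-0.65). CXCL8 had 1035, 649 and 839.6 (0.679-fold, 0.216 to 2.14, adjusted p = 0.536), and the fit on these groups alone called it lower (0.0214).

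Adding MD-224 after NCS raised IL1A and IL1B, 2 of the 8 (table: 15.1% higher, 0% lower, with 3 genes lower at an unadjusted p under 0.05 and 1 called lower by DESeq2). Their libraries did not overlap with NCS (higher in 40.8% of tested genes), nor did those of IL7, which were lower (1.04%). IL1A had 1404, 848 and 1176 normalized counts with NCS+MD-224 and rose 2.73-fold over NCS (1.82 to 4.12, adjusted p = 0.00174). IL1B had 5597, 2623 and 5864 and rose 4.32-fold (2.27 to 8.24, adjusted p = 0.0034). Both rises held under TMM scaling (adjusted p = 0.0282 and 0.0217), which moved the median of all genes by -0.32. IL1A lost its call with replicate 3 of all groups left out (adjusted p = 0.0596), and IL1B with replicate 1 left out likewise (0.0716).

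The other 6 genes did not pass this test. IL6 had 578, 512 and 876 (0.912-fold, 0.414 to 2.01) and IL7 221, 199 and 237, below all 3 NCS libraries (0.763-fold, 0.567 to 1.03, adjusted p = 0.215). CXCL1 had 234, 205 and 411, CXCL3 102, 92.0 and 218, and CXCL8 1519, 762 and 4783. Replicate 3 was the highest library of the group for all 3 chemokines and for IL6. The chemokine folds over NCS were 1.12 (0.571 to 2.21), 1.38 (0.426 to 4.45) and 1.45 (0.461 to 4.58). Without NCS+MD-224 replicate 3, CXCL8 was lower than with NCS (log2 difference of -0.18) instead of higher (0.54). CSF1 had 14056, 12278 and 10736 (0.938-fold, 0.736 to 1.20).

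**Figure D3:**
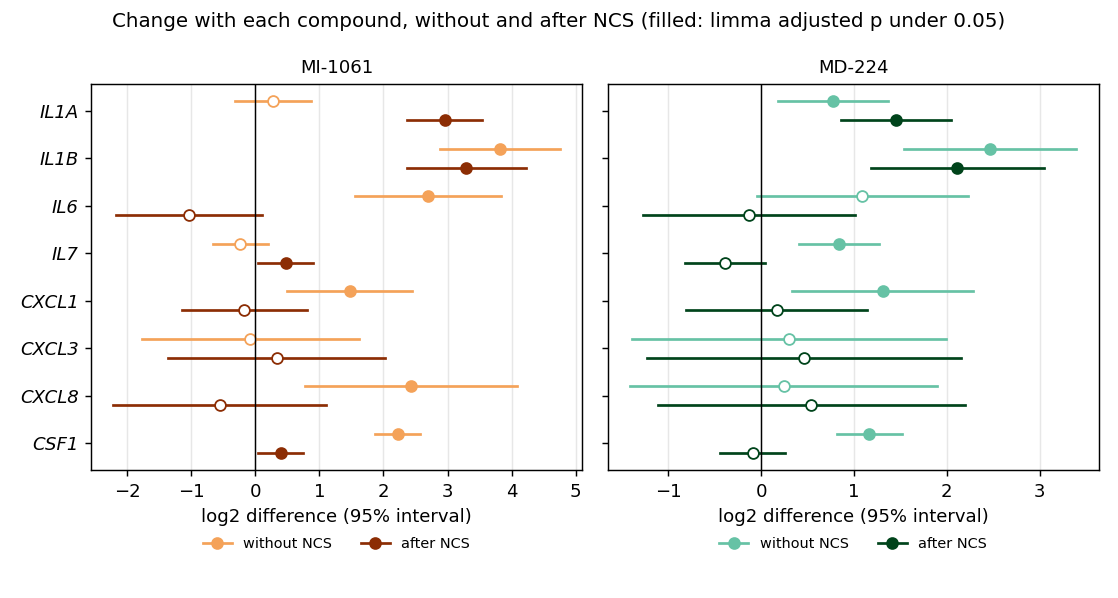
Log2 difference with each compound, without NCS (compound against DMSO, pale) and after NCS (NCS with compound against NCS, dark), for the 8 genes (points: limma estimate; lines: 95% interval; filled: adjusted p under 0.05). With MI-1061, IL1A lay at 0.27 without NCS and 2.96 after it, while IL6 lay at 2.69 and -1.04 and CSF1 at 2.22 and 0.40.

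After NCS the degrader gave lower IL1A, IL1B, IL7 and CSF1 than the inhibitor and no gene of the 8 was called higher (table: 54.7% lower, 0.748% higher). The libraries of these 4 did not overlap (lower in 67.7% of tested genes), and those of IL6 lay apart in the other direction (1.69%). The median of the 8 was 0.882-fold and that of all tested genes was lower, at 0.629-fold. IL1A was 0.353-fold in NCS+MD-224 relative to NCS+MI-1061 (0.234 to 0.531, adjusted p = 0.000229), a call that stood in all alternatives tried. IL7 was 0.550-fold (0.408 to 0.740, adjusted p = 0.00169) and lost its call under TMM scaling (0.496), which called 357 genes higher and 550 lower (23 and 1680 as deposited). IL1B was 0.441-fold (0.232 to 0.841, adjusted p = 0.0309). The IL1B call ended under TMM scaling (0.397) and without any 1 of the NCS+MI-1061 libraries or NCS+MD-224 replicate 2 (0.0533 to 0.165). CSF1 was 0.713-fold (0.559 to 0.909, adjusted p = 0.0192), with its sign turned under TMM scaling (log2 difference of 0.18). That call also ended without NCS+MI-1061 replicate 1 or NCS+MD-224 replicate 3 (0.052 and 0.0893).

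IL6 lay higher in each NCS+MD-224 library than in each NCS+MI-1061 library, without passing the test (1.87-fold, 0.850 to 4.12, adjusted p = 0.166). It was called higher in the fit on these groups alone (0.0082) and under TMM scaling (0.0352). CXCL1 was 1.27-fold (0.643 to 2.49), CXCL3 1.09-fold (0.338 to 3.53) and CXCL8 2.14-fold (0.679 to 6.74), all with overlapping libraries. IL7 was thus higher with the degrader than with the inhibitor without NCS and lower after NCS, each past the test.

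**Figure D4:**
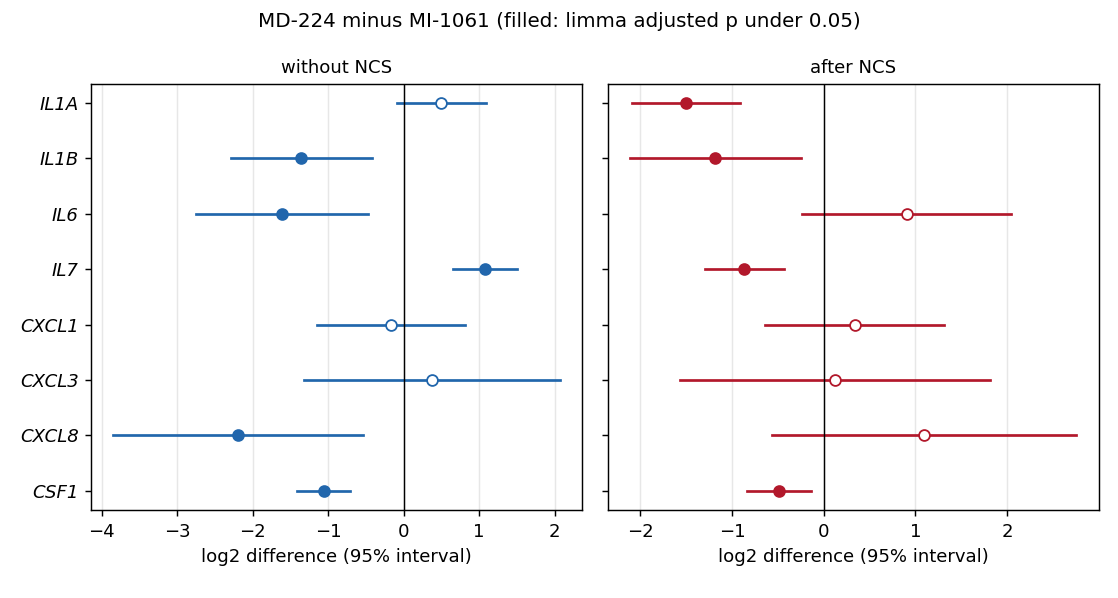
Log2 difference of MD-224 minus MI-1061 at 1 µM for the 8 genes, without NCS and after NCS (points: limma estimate; lines: 95% interval; filled: adjusted p under 0.05). IL7 lay at 1.08 without NCS and -0.86 after it, CSF1 at -1.06 and -0.49, and IL6 at -1.61 and 0.90. The medians of all tested genes were -0.58 and -0.67.

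Whether a compound's response depended on NCS was tested as the response after NCS minus that without NCS. For MI-1061, IL1A had the larger response after NCS (table: 23.5% higher), and IL6, CXCL8 and CSF1 the smaller (table: 20.8% lower). TMM scaling moved the median of all genes by -0.01 in this comparison, and the directions of these 4 held under it. The difference for IL1A was 2.68 on the log2 scale (interval 1.85 to 3.51, adjusted p = 5.78e-05), that is, 6.41-fold. For IL6 it was -3.73 (-5.34 to -2.12, adjusted p = 0.000895) and for CSF1 -1.83 (-2.32 to -1.33, adjusted p = 1.77e-05). These 3 calls stood in all alternatives tried.

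CXCL8 differed by -2.99 (-5.33 to -0.65, adjusted p = 0.0372). That call ended without any 1 of 7 libraries: DMSO replicate 3, MI-1061 replicate 2 or 3, NCS replicate 1 or 3, or NCS+MI-1061 replicate 2 or 3 (adjusted p = 0.0602 to 0.108). CXCL1 at -1.65 (adjusted p = 0.0505) and IL7 at 0.71 (0.0538) lay close to the threshold. With the replicate number as a block they passed it (0.0209 and 0.042). Both also passed on recovered reads with DESeq2 (0.00593 and 0.0215) and with edgeR on the deposited scaling (0.0193 and 0.0473). CXCL1 passed under TMM scaling (0.0422), in the robust fit (0.0491), on the compared groups alone (0.0455) and without MI-1061 replicate 1 (0.00283). IL7 passed with a mean filter of 50 (0.0497) and without DMSO replicate 2, MI-1061 replicate 2 or NCS+MI-1061 replicate 1 (0.0297 to 0.0499). IL1B, with -0.53 (-1.84 to 0.79), and CXCL3, with 0.41 (-1.98 to 2.81), did not pass.

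For MD-224, IL7 and CSF1 had the smaller response after NCS and no gene of the 8 the larger (table: 7.19% lower, 4.07% higher). The difference was -1.23 for IL7 (-1.84 to -0.62, adjusted p = 0.013) and -1.25 for CSF1 (-1.75 to -0.76, adjusted p = 0.00368), and both calls held under TMM scaling, which moved the median of all genes by 0.16 and called 201 genes higher and 127 lower (125 and 221 as deposited). With replicate 1, 2 or 3 of all groups left out, the IL7 call ended (adjusted p = 0.0767, 0.0857 and 0.187), and CSF1 lost its call without replicate 3 (0.119). IL1A differed by 0.68 (-0.16 to 1.51, adjusted p = 0.299), IL6 by -1.22 (-2.83 to 0.39, adjusted p = 0.339) and CXCL8 by 0.30 (-2.04 to 2.64). Whether the MI-1061 and MD-224 interactions differ from each other was not tested.

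Genes around the 8 in their pathway were taken from lists that earlier results of these data had in view, and only listed genes could be tested. Of 32 NF-kB pathway and feedback genes 12 were tested, and NCS raised 11, MI-1061 all 12 and MD-224 3 (NFKBIA, IRAK2 and ICAM1). Of all tested genes, 54%, 67.6% and 39.9% were called higher. The medians of the 12 were 1.93-, 2.66- and 1.13-fold, beside 1.58-, 1.99- and 1.40-fold for all genes. Under TMM scaling these calls fell to 2 higher and 1 lower for NCS, 5 higher and 1 lower for MI-1061, and 3 lower and none higher for MD-224. TNFAIP3, a deubiquitinase that damps NF-kB, rose 1.93-fold with NCS and 2.60-fold with MI-1061, neither called under TMM scaling (adjusted p = 0.168 and 0.0706). TRAF1, an adaptor of TNF receptors, rose 4.05-fold with NCS. BIRC3, a ubiquitin ligase of TNF signalling, was 0.167-fold with MD-224 relative to MI-1061 (adjusted p = 2.59e-05). In that comparison 10 of the 12 NF-kB genes were lower and none higher, beside 49.8% lower and 12.4% higher of all tested genes. The median of the 12 was 0.438-fold, beside 0.671-fold for all genes. Under TMM scaling 8 were called lower.

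After NCS, MI-1061 raised 9 of the 12 NF-kB genes (median 1.74-fold, all genes 1.96-fold, with 70.5% of all tested genes higher), and 2 were higher and 3 lower under TMM scaling. TAB3, an adaptor of the kinase TAK1, rose 5.78-fold (adjusted p = 1.53e-10) and had a larger response after NCS than without it (log2 difference of 1.95, adjusted p = 1.35e-06). TNIP3, IRAK2 and ICAM1, like IL6, had the smaller response after NCS, with differences of -2.40, -1.65 and -1.72. Of the 12, 4 were called with a smaller and 1 with a larger response, beside 20.8% and 23.5% of all tested genes. The ICAM1 call ended without replicate 3 of every group (adjusted p = 0.131). IRAK2 carries the IL-1 receptor signal, and ICAM1 is an adhesion molecule and NF-kB target. With MD-224 after NCS, TAB3 was the 1 NF-kB gene called (1.71-fold, adjusted p = 0.000757), where 15.1% of all tested genes were called higher.

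**Figure D5:**
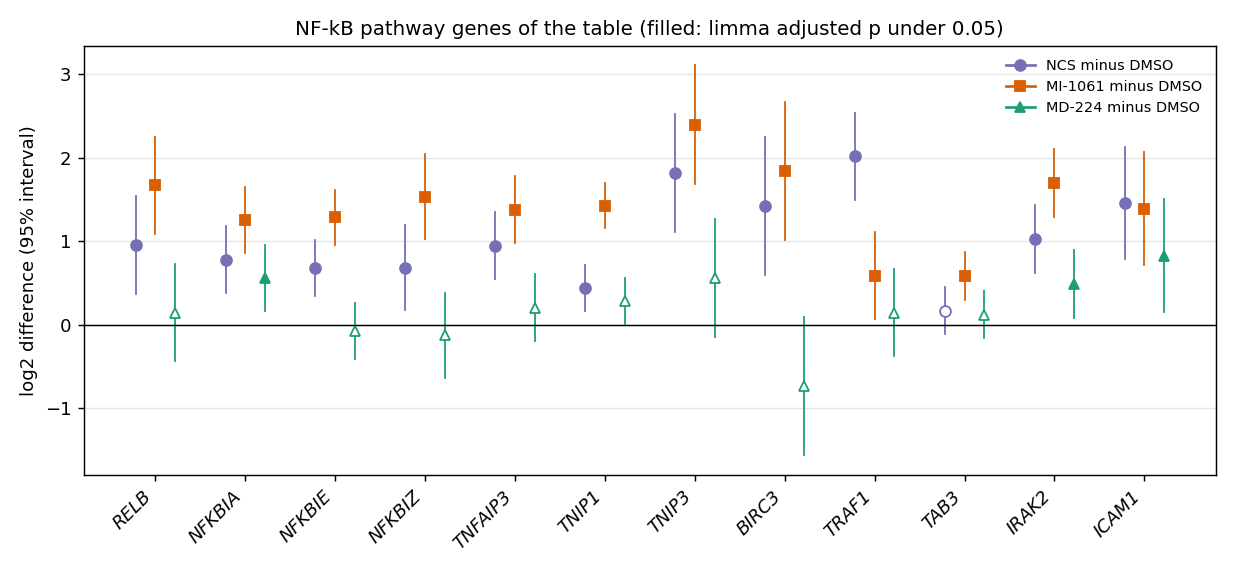
Log2 difference from DMSO of the 12 NF-kB pathway genes in the table with NCS, MI-1061 or MD-224 (points: limma estimate from 3 against 3 libraries; lines: 95% interval; filled: adjusted p under 0.05). MI-1061 values were all above 0 and called, while 3 of the 12 were called with MD-224. Of all tested genes, 67.6% were called higher with MI-1061 and 39.9% with MD-224. Under TMM scaling TRAF1 turned below 0 with MI-1061 (-0.40).

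Of 19 genes for AP-1, C/EBP and other transcription factors of the pathway 11 were tested. MI-1061 raised 10 (median 3.18-fold, all genes 1.99-fold) and MD-224 raised 3 and lowered FOSL1, while NCS raised 7 and lowered FOSL1, beside 67.6%, 39.9% and 54% of all tested genes higher. The medians with MD-224 and NCS were 1.22- and 1.57-fold, beside 1.40- and 1.58-fold for all genes. FOSL1 was 0.665-fold with NCS (adjusted p = 0.04996), a call that ended at a pseudocount of 0.5 (0.05005), with a mean filter of 50 (0.0508), in the fit on these groups alone (0.11) and without NCS replicate 2 or 3 (0.134 and 0.141). Without DMSO replicate 1 its log2 difference was -0.23 (0.337). Under TMM scaling the calls were 6 higher and 1 lower for MI-1061, 2 lower for MD-224 and 1 lower for NCS. FOSB, an AP-1 subunit, rose 11.5-fold with MI-1061 and was 0.0854-fold with MD-224 relative to it. ATF3, a stress-induced factor, rose 6.10-fold with MI-1061 and was 0.240-fold with MD-224 relative to it. FOSL1 rose 2.18-fold with MI-1061 (not called under TMM scaling, adjusted p = 0.635) and fell to 0.415-fold with MD-224. FOSB, like IL6 and CXCL8, had the smaller MI-1061 response after NCS (-2.97, adjusted p = 1.82e-06). Of the 11, 5 were called with a smaller response and none with a larger, beside 20.8% and 23.5% of all tested genes.

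Of 44 other cytokine and chemokine genes 8 were tested, and NCS raised 5, MI-1061 7 and MD-224 4, beside 54%, 67.6% and 39.9% of all tested genes. Under TMM scaling NCS raised 3, MI-1061 raised 3 and lowered 1, and MD-224 lowered 1. IL32 rose 8.58-fold with NCS and IL34, a second ligand of the CSF1 receptor, 8.78-fold. IL24 rose 10.3-fold with MI-1061 and was 0.0908-fold with MD-224 relative to it. Like IL6, 4 of these 8 had a smaller MI-1061 response after NCS and none a larger, under either scaling (all tested genes: 20.8% lower, 23.5% higher). Among the 4 were IL24 (-3.10) and CCL26 (-2.09). The IL24 call ended without replicate 3 of every group (adjusted p = 0.123). Of 16 genes for the maturing and release of IL-1 proteins 5 were tested, of which NCS and MI-1061 each raised 4 and MD-224 3, beside the same shares of all tested genes (under TMM scaling 1 higher, 1 higher and 2 lower, and 2 higher). CASP1, the protease that matures IL1B, rose 1.97-fold with MD-224 and was 2.45-fold higher with it than with MI-1061, the same direction as IL7. The rise over DMSO was not called under TMM scaling (adjusted p = 0.145). NLRP1, an inflammasome sensor, rose 5.83-fold with MI-1061 after NCS (adjusted p = 4.84e-11). Its response was larger after NCS than without it (1.43, adjusted p = 8.25e-06), as for IL1A. Of these 5 release genes, 2 were called with a larger and 1 with a smaller response, beside 23.5% and 20.8% of all tested genes. Of 14 receptor genes only IL1RAP and IL7R were tested, and IL1RAP, a chain of the IL-1 receptor, rose 3.19-fold with MI-1061. Of 12 mRNA decay genes only ZC3H12A, a nuclease of cytokine mRNAs, was tested, and it rose 2.05-fold with NCS and 2.93-fold with MI-1061, neither called under TMM scaling (adjusted p = 0.253 and 0.0807).

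Genes used as markers of blood cells also differed between the groups of this 1 cell line. Of 15 such markers 3 were listed: LAPTM5, ITGAM and CD68. None was at 0 in any library, and the other 12, PTPRC and CSF1R among them, were not analysed here. Their summed level was 439.9 to 1111 normalized counts with DMSO, 2412 to 3052 with MI-1061, 783 to 1085 with MD-224 and 2302 to 2498 with NCS. It was 4852 to 4962 with NCS+MI-1061 and 3418 to 4506 with NCS+MD-224. LAPTM5 rose 20.5-fold with MI-1061 and 2.47-fold with NCS, and ITGAM 17.7-fold and 6.95-fold. CD68 rose 3.61-fold with NCS, and with MI-1061 it was 1.13-fold (adjusted p = 0.584), called lower under TMM scaling (log2 difference of -0.81, adjusted p = 0.0184) and higher without DMSO replicate 1 (0.61, adjusted p = 0.0231). The LAPTM5 rise with NCS was not called under TMM scaling (adjusted p = 0.145). Of 5 endothelial markers VWF and KDR were listed, with summed levels of 150.4 to 475 normalized counts in 15 libraries and 1943 to 3235 in the 3 with MI-1061. The part of these markers in the cytokine results was not tested. All 18 libraries were labelled as SJSA-1 cells, and the listed markers passed the same listing as the other genes. In bulk RNA, a change in the share of cells that express a gene and a change in RNA per cell cannot be told apart.

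The genes whose pattern over the 18 libraries was most like each of 7 of the 8 were found by Pearson correlation on log2(value + 1) among 2598 genes with a mean of at least 50. The points share groups and libraries, so the values are descriptions. IL1A was closest to LRRC8E (0.972), PPAPDC1B and DEDD2, and IL1B to TMEM208 (0.975), SERPINE2 and SH3BGRL3. CXCL8 was closest to VGF (0.907), SERPINB2 and IL4I1. CXCL1 was closest to TMEM132A (0.950), PLA2G4C and KCP, and CXCL3 to TUBA4A (0.922), HRK and TNFRSF9. CSF1 was closest to PLXNA4 (0.959), SDCBP2-AS1 and NEK8. IL7 had the lowest best match, with CASP1 (0.837), followed by VAMP5 and CEBPZOS.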

How the data were processed

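The authors deposited 1 table of normalized counts (unit: signal, whole reads over each library's size factor) for 18 libraries and 3074 genes. The submitters' processing notes list the build GRCh38, DESeq2 2.11.40.6, featureCounts 1.6.3 and HISAT2 2.0.5.2, without roles. Titles were followed for the inhibitor's name, which the treatment text writes with other digits. Whole reads were recovered in all 18 libraries (100% of values within 0.01 reads of a whole number). Listed genes summed to 4490870 to 21816350 reads per library, which is not the depth, since the table is a selection.

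The main test was limma 3.58.1 (trended variance, two-sided) on log2(value + 1), for 3073 genes with at least 10 in at least 3 libraries. All 6 groups were in 1 fit without a replicate block, with Benjamini-Hochberg adjustment over all tested genes and calls under 0.05, for 9 pairwise comparisons and 2 interactions. The script was tested on simulated data. Alternatives were other pseudocounts and filters, TMM scaling, a replicate block, a robust fit, fits on the compared groups alone, each replicate left out, and edgeR 4.0.16 and DESeq2 1.42.0 on recovered reads (R 4.3.3). For NCS against DMSO limma called 1699 genes, edgeR 1610 and DESeq2 1712 on the same scaling. Members, lists and alternatives were chosen with earlier results of these data known. Named are the 8 genes, listed genes of 9 gene lists, MDM2 and CDKN1A, and the 3 genes most alike to each member (those for IL6 are not reported here). List genes given values were picked after their values were seen.

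Same-numbered libraries deviated together (every correlation over 0.1) in 7 of the 9 pairwise comparisons. The lowest correlations were 0.0627 for NCS against DMSO and 0.0197 for NCS+MI-1061 against MI-1061.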

Additional observations from a re-analysis of the deposited data

Results flagged for a closer look

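The response to a compound differed between cells without and after NCS for 5 genes in 6 tests of that difference (limma interaction, log2 response after NCS minus that without it). With MI-1061 it was 2.68 for IL1A, -3.73 for IL6, -2.99 for CXCL8 and -1.83 for CSF1. With MD-224 it was -1.23 for IL7 and -1.25 for CSF1. Of all tested genes, 23.5% had a higher and 20.8% a lower response to MI-1061 after NCS, and 4.07% and 7.19% to MD-224. The DMSO libraries enter both interactions, so these are not independent.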

How the results depend on the processing

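Of 88 gene-by-comparison results for the 8 genes, 52 were called. Of these, 26 kept the call in every alternative, and 26 lost it or reversed in at least 1. Of the 36 not called, 13 were called in at least 1 alternative and 19 changed sign without a call. TMM scaling on the listed genes assumes that they do not rise as a whole, although they were listed for being higher with NCS+MI-1061.

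Under TMM scaling, and under edgeR with TMM on recovered reads, these log2 differences reversed: IL1A with MI-1061 against DMSO (-0.71 and -0.74), TRAF1 (-0.40 and -0.44) and CD68 (-0.81 and -0.89) in that comparison, and 3 genes with NCS+MI-1061 against NCS, namely IL7 (-0.52 and -0.50), CSF1 (-0.60 and -0.60) and TNFAIP3 (-0.018 and -0.013). CSF1 with NCS+MD-224 against NCS+MI-1061 also reversed (0.18 and 0.18). The genes called, out of 3073, moved from 1699 to 923 and 865 for NCS against DMSO, from 1311 to 684 and 641 for MD-224 against DMSO, and from 2191 to 1326 and 1358 for NCS+MI-1061 against NCS. They moved from 465 to 122 and 138 for NCS+MD-224 against NCS, from 1703 to 907 and 959 for NCS+MD-224 against NCS+MI-1061, and from 1216 to 651 and 668 for NCS+MD-224 against MD-224. The 8 genes' calls moved from 5 to 2 (both tools) for MD-224 against DMSO, from 5 to 3 (TMM scaling) for MD-224 against MI-1061, and from 4 to 2 (TMM scaling) for NCS+MD-224 against NCS+MI-1061. In fits on the compared groups alone, MD-224 against DMSO gave 795 genes and 3 of the 8. The cause of these changes was not tested.

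With the replicate block, 755 genes were called for NCS+MD-224 against NCS (465 without it) and 612 for the MD-224 interaction (346 without it). Apart from CXCL1 and IL7 in the MI-1061 interaction (adjusted p = 0.0209 and 0.042), the block changed no call of the 8 genes.

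Leaving out replicates, singly or the same number in every group, gave these ranges of calls among the 8 genes: MI-1061 against DMSO 3 to 5, MD-224 against DMSO 3 to 5, MD-224 against MI-1061 2 to 6, NCS+MI-1061 against NCS 2 to 4, NCS+MD-224 against NCS 1 to 2, NCS+MD-224 against NCS+MI-1061 1 to 4, NCS+MD-224 against MD-224 3 to 8, and the MD-224 interaction 0 to 2. Over all genes the ranges were 902 to 1597 for NCS against DMSO, 619 to 1227 for MD-224 against DMSO, 163 to 463 for NCS+MD-224 against NCS, 1080 to 1630 for NCS+MD-224 against NCS+MI-1061, 476 to 1128 for NCS+MD-224 against MD-224, 649 to 1391 for the MI-1061 interaction and 4 to 412 for the MD-224 interaction. The lowest of each of these came without replicate 3 of every group, a fit with 2 libraries a group. NCS+MD-224 against NCS gave 176 without replicate 1 of every group and 186 without NCS+MD-224 replicate 1, and the MD-224 interaction gave 160 and 178 without replicate 1 or 2 of every group and 172 without NCS replicate 3. CXCL3 rested on 2 to 42 reads in libraries without NCS, which limits its differences.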
